A study of Mus musculus with 13 samples.

Results

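The circadian clock genes described here were the 10 genes Arntl (also called Bmal1), Npas2, Per1, Per2, Per3, Cry1, Nr1d1, Nr1d2, Dbp and Tef, picked by symbol from 35013 genes in a table of thiol-tagged kidney RNA. All 10 were present in every library, with at least 58 reads per gene and library, and all were among the 16468 genes tested. In iron-loaded kidneys Per1, Per2, Per3, Nr1d2 and Tef were called lower than in controls, as were 19.7% of all tested genes. Npas2 was called higher, as were 22.4%. The calls of Per1, Per3 and Tef were lost in fits that left out 1 iron-loaded library. The iron-loaded libraries differed from each other by up to 37.8-fold in a single clock gene, Dbp. In kidneys labelled Spns1 KO none of the 10 genes passed the test, and Arntl came closest.

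The clock of mammalian cells is a loop of transcription factors. Arntl pairs with Clock or its relative Npas2 and switches on the Per and Cry genes, whose proteins then shut the pair off. A second loop runs through Nr1d1 and Nr1d2, nuclear receptors that repress Arntl and are opposed by the Ror receptors, and an output arm runs through Dbp, Tef and Hlf, which drive further cycling genes. Arntl RNA is known to peak at the opposite time of day from Nr1d1 and Dbp, and many kidney transport genes cycle with the clock.

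Nascent RNA was tagged in mice carrying a tamoxifen-inducible Cre driven by the megalin promoter and 1 floxed-stop allele of uracil phosphoribosyltransferase (Uprt), an enzyme that lets cells build injected 4-thiouracil into new RNA. All mice were female, were given tamoxifen and, per the methods, shared this Megalin3'Cre-Ert;Uprt flox/+ background. The 4 libraries labelled Spns1 KO came from Spns1 flox/flox kidneys, which lose the lysosomal transporter Spns1 where the Cre acts. The 5 WT and 4 iron overload (FeO) libraries came from mice that the labels call Spns1 WT and the methods Spns1 flox/+, and the FeO mice had received 12 mg of iron as iron sucrose on each of 3 days and were euthanized 1 week later. The sources used here give neither the age of the mice nor the time of day of the 4-thiouracil injection or of tissue collection. Nothing says whether each library is a separate animal, so p-values measure the spread between these libraries only.

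Total counts per library were 23068023 to 37362311 in WT, 31809135 to 71296474 in Spns1 KO and 25986133 to 29981814 in FeO. Levels are given as CPM, read counts scaled to the TMM-adjusted library total. Adjusted p-values come from quasi-likelihood tests in edgeR, adjusted by the Benjamini-Hochberg method over all genes tested, and a gene was called at an adjusted p under 0.05 together with a log2 fold change beyond 0.5 either way. Spns1, the targeted gene, did not separate the groups: it lay between 36.6 and 59.0 CPM in the libraries labelled Spns1 KO and between 39.2 and 62.9 CPM in WT. Captured RNA held the markers of the labelled cell type, since the summed level of 8 proximal tubule genes was 2627 to 3651 CPM in WT, 5595 to 6533 CPM in Spns1 KO and 1578 to 3687 CPM in FeO. It also held markers of other kidney cells, and no marker of the 8 lists was at 0 in all libraries. The 3 thick ascending limb markers summed to 2706 CPM in FeO 1 and 3386 CPM in FeO 4. Proximal tubule sums there were lower, at 1578 and 2557 CPM, and in every other library they were the higher. No uncaptured RNA is among the 13 libraries, so enrichment was not measured. WT 1 and WT 2 were the closest pair of libraries but differed by more than sampling noise, with a mean chi-square of 8.61 per gene, and were kept apart. The libraries FeO 1, FeO 3 and Spns1 KO 4 stood apart in the clock genes, as described below, and values without them are given beside the results where they change a call or its direction.

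The members lay over a wide range of expression in WT kidney. Levels compared between genes are CPM per kilobase of transcript, as means of 5 WT libraries. Tef, a PAR bZip output factor, was highest at 168, without overlap with the next gene. Nr1d2, Per1, Per2, Per3, Cry1, Dbp and Nr1d1 followed at 72.5, 52.2, 32.1, 16.8, 13.7, 12.1 and 11.6, each overlapping its neighbour in the WT range. Arntl, at 7.18, and Npas2, at 0.870, were the lowest, and neither overlapped the gene above it.

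**Figure D1:**
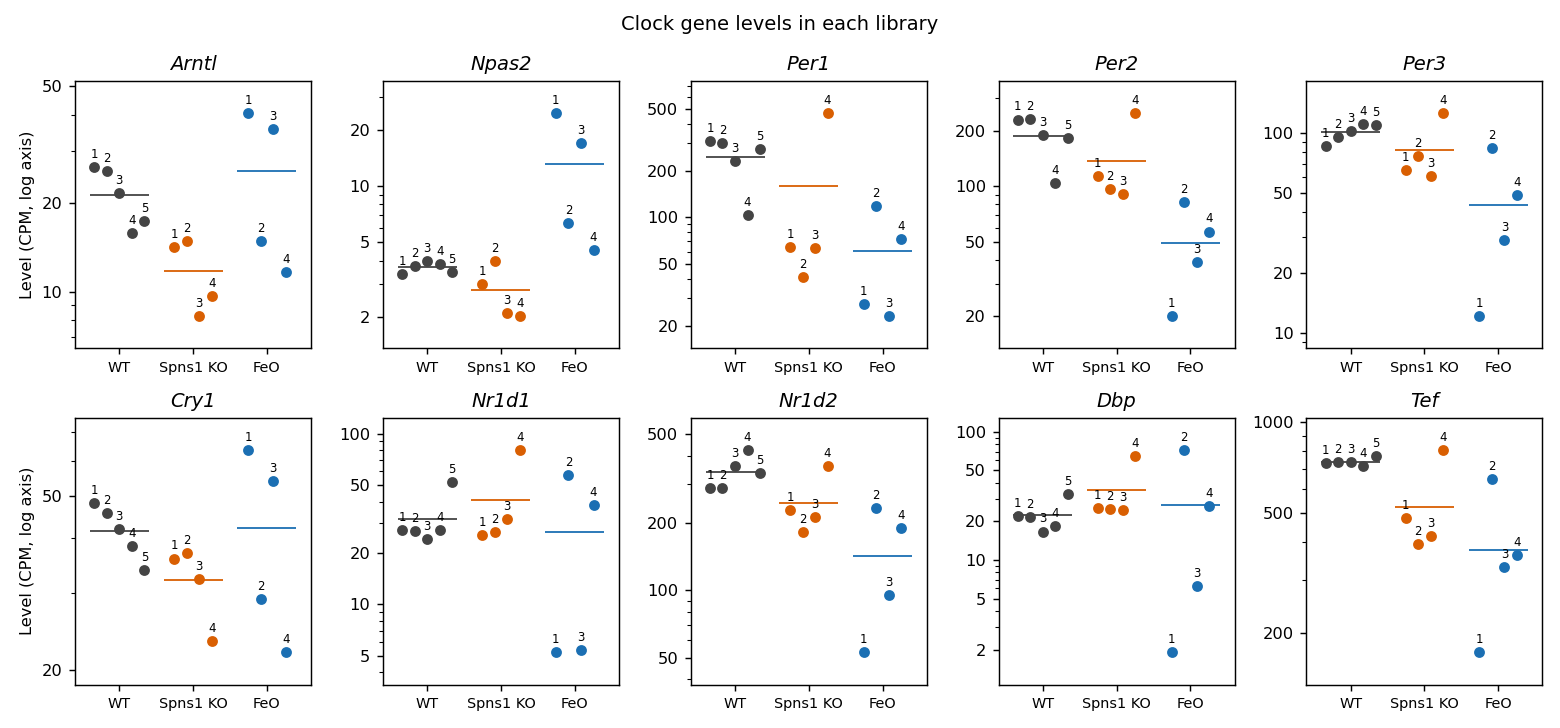
Level of each of the 10 clock genes (CPM, log axis) in 5 WT, 4 Spns1 KO and 4 FeO libraries; each numbered point is 1 library and the line is the group mean. FeO 1 and FeO 3 hold the highest Arntl, Npas2 and Cry1 values and the lowest values of the other 7 genes.

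The positive arm was described first. Arntl (chromosome 7, 113207465 to 113314126 of GRCm38, plus strand) encodes the partner shared by Clock and Npas2. Its level was 26.4, 25.6, 21.6, 15.8 and 17.3 CPM in WT 1 to WT 5, and 14.2, 14.8, 8.28 and 9.65 CPM in Spns1 KO 1 to 4. In FeO 1 to FeO 4 it was 40.4, 14.9, 35.9 and 11.7 CPM. Every library labelled Spns1 KO lay below every WT library, whereas FeO held both the 2 highest values of all and 2 values below every WT library. The log2 fold change of Spns1 KO was -0.86 (standard error 0.33, edgeR adjusted p = 0.0710), with a 95% interval of -1.57 to -0.16 and 4 of 4 libraries below the WT mean. In FeO it was 0.27 (standard error 0.32, edgeR adjusted p = 0.518), and without FeO 1 it was -0.02.

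Npas2 (chromosome 1, 39193731 to 39363236, plus strand) encodes a relative of Clock that can take its place beside Arntl. It lay between 3.38 and 3.97 CPM in the 5 WT libraries, the second narrowest WT range of the members at 1.18-fold. The libraries labelled Spns1 KO held 3.00, 3.98, 2.10 and 2.03 CPM, and those of FeO 24.4, 6.36, 16.9 and 4.53 CPM. Each FeO library was above every WT library and above every library labelled Spns1 KO. The log2 fold change in FeO was 1.82 (standard error 0.39, edgeR adjusted p = 0.00201), which is 3.54-fold, and it ran from 1.35 without FeO 1 to 2.13 without FeO 4. In Spns1 KO it was -0.41 (standard error 0.39, edgeR adjusted p = 0.472).

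The negative arm, the Per and Cry genes, encodes the proteins that turn the Arntl pair off. Per1 and Cry1 each hold the letters CACGTG, the E-box that the Arntl pair is known to bind. The letters lie within 250 bases before a RefSeq start, as they do before both listed starts of Tef. In Per1 and Tef the stretches below lie inside the gene as placed by GENCODE, which begins at 69095217 and 81802421. In Cry1 the stretch lies before the GENCODE gene. The stretches below are shown because the members divide over them: Per1 and Tef fell in FeO, while Cry1, with the same letters, was not called. They are from the RefSeq promoter windows of GRCm38.p6, each running 5′ to 3′ on the gene's strand, and capitals mark CACGTG or its variant CACGTT, read on either strand.
Per1, chr11:69098753-69098818, plus strand: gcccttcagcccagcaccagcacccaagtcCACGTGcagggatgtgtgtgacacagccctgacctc
Cry1, chr10:85185079-85185163, minus strand: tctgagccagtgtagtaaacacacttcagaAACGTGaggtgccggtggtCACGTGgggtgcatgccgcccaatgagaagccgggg
Tef, chr15:81802516-81802581, plus strand: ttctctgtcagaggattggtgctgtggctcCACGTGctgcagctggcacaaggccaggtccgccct
Tef, chr15:81811246-81811311, plus strand: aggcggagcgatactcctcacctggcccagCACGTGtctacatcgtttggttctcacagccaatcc
The E-box began 166 bases before the RefSeq start in Per1, 60 in Cry1, and 127 and 138 in the Tef windows. CACGTG was in 4 of 12 windows of the members (9 genes matched, and Per2 was not among them) and in 7.15% of 32851 windows in all. CACGTT was in 4.68% of all windows and, among members, in Cry1 and Nr1d1. A match is a description of these letters, not of binding.

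Per1 (chromosome 11, 69095217 to 69109960, plus strand), a period gene known to respond quickly to hormones, was at 308, 299, 230, 104 and 277 CPM in WT 1 to WT 5. It was at 64.0, 40.9, 63.1 and 468 CPM in Spns1 KO 1 to 4 and at 27.7, 119, 23.2 and 72.3 CPM in FeO 1 to FeO 4. WT 4 was the lowest WT library, and 3 of the 4 libraries labelled Spns1 KO lay below all WT libraries, while Spns1 KO 4 lay above them all. The log2 fold change was -0.62 in Spns1 KO (standard error 0.65, edgeR adjusted p = 0.511) and -2.12 without Spns1 KO 4, where it passed the limits (edgeR adjusted p = 0.00514, against 0.00514 to 0.865 over the alternatives). In FeO it was -2.01 (standard error 0.68, edgeR adjusted p = 0.0264), and the call was lost without FeO 1 (-1.75, edgeR adjusted p = 0.0797) or without FeO 3 (-1.74, edgeR adjusted p = 0.0761), against 0.00229 to 0.0797 over the alternatives.

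Per2 (chromosome 1, 91415982 to 91459324, minus strand), which with Per1 carries most of the repression in the loop, was at 229, 231, 188, 104 and 183 CPM in WT 1 to WT 5. It was at 114, 97.1, 91.2 and 247 CPM in Spns1 KO 1 to 4 and at 20.1, 82.6, 39.0 and 57.2 CPM in FeO 1 to FeO 4. All FeO libraries lay below all libraries of the other groups. The FeO log2 fold change was -1.91 (standard error 0.39, edgeR adjusted p = 0.00167), that is to 0.266 of the WT level, and it stayed between -2.26 and -1.63 with any 1 library left out. In Spns1 KO the log2 fold change was -0.44 (standard error 0.37, edgeR adjusted p = 0.402) and -0.89 without Spns1 KO 4.

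Per3 (chromosome 4, 151003652 to 151044665, minus strand), the period gene that the loop can do without, was at 86.4, 94.9, 102, 111 and 110 CPM in WT 1 to WT 5. It was at 65.1, 76.9, 61.1 and 125 CPM in Spns1 KO 1 to 4 and at 12.2, 84.3, 29.1 and 48.9 CPM in FeO 1 to FeO 4, with every FeO library below every WT library. The FeO log2 fold change was -1.21 (standard error 0.39, edgeR adjusted p = 0.0204), and without FeO 3 it was -1.06 and no longer called (edgeR adjusted p = 0.0648, against 0.00163 to 0.0757 over the alternatives). Without FeO 1 it was -0.88. In Spns1 KO it was -0.30 (standard error 0.38, edgeR adjusted p = 0.592), and -0.57 without Spns1 KO 4. Per3 was the only one of the 9 members with a window in which TTATGTAA was found, a form of the D-box that Dbp, Tef and Hlf are known to bind. The letters, in capitals, occur at 205 and at 158 bases before the start, and 0.938% of all windows hold them on either strand. The other D-box form searched, TTACGTAA, was in 0.119% of all windows and in none of the members'.
Per3, chr4:151044786-151044900, minus strand: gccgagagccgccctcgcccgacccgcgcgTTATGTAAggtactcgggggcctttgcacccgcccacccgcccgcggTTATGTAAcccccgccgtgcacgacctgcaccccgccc

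Cry1 (chromosome 10, 85131700 to 85185064, minus strand), a cryptochrome and the strongest repressor of the Arntl pair, was at 33.8 to 48.1 CPM in WT. It was at 35.9, 37.0, 32.2 and 23.2 CPM in Spns1 KO 1 to 4 and at 63.6, 29.0, 53.9 and 21.9 CPM in FeO 1 to FeO 4. As with Arntl, FeO 1 and FeO 3 were above every WT library and FeO 2 and FeO 4 below every one. The log2 fold change was 0.02 in FeO (standard error 0.26, edgeR adjusted p = 0.961, 95% interval -0.53 to 0.57), and its sign depended on the scaling (-0.01 with upper-quartile factors and -0.05 with library totals). The sign also turned without FeO 1 (-0.23), FeO 3 (-0.12) or WT 5 (-0.03). It was -0.37 in Spns1 KO (standard error 0.26, edgeR adjusted p = 0.309).

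The stabilizing loop was read from both Nr1d genes, which encode the REV-ERB receptors. Nr1d1 (chromosome 11, 98767932 to 98775333, minus strand) was at 27.4, 26.8, 24.2, 27.1 and 51.9 CPM in WT 1 to WT 5 and at 25.5, 26.5, 31.8 and 80.1 CPM in Spns1 KO 1 to 4. In FeO 1 to FeO 4 it was at 5.21, 57.5, 5.40 and 38.0 CPM. FeO 2 was above and FeO 1 and FeO 3 were below every WT library. The log2 fold change was -0.25 in FeO (standard error 0.59, edgeR adjusted p = 0.749, 95% interval -1.50 to 1.01), and its sign turned without WT 5 (0.02), FeO 1 (0.11) or FeO 3 (0.09). It was 0.38 in Spns1 KO (standard error 0.58, edgeR adjusted p = 0.660) and -0.17 without Spns1 KO 4. Exons of Nr1d1 share 263 bases (98768157 to 98768419) with Thra on the other strand, and without a stated strand setting the reads of both cannot be told apart there. Thra was at 15.4 to 22.8 CPM in WT, and at 68.7, 31.3, 28.5 and 29.1 CPM in FeO 1 to FeO 4.

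Nr1d2 (chromosome 14, 18204054 to 18239127, minus strand) was at 286, 287, 361, 423 and 335 CPM in WT 1 to WT 5. It was at 228, 182, 213 and 358 CPM in Spns1 KO 1 to 4 and at 52.8, 234, 95.5 and 189 CPM in FeO 1 to FeO 4. All FeO libraries lay below all WT libraries. The FeO log2 fold change was -1.24 (standard error 0.35, edgeR adjusted p = 0.00967) and was -0.95 without FeO 1. In Spns1 KO it was -0.46 (standard error 0.34, edgeR adjusted p = 0.331), and -0.70 without Spns1 KO 4. Counts of Nr1d2 are less certain, because 9.51% of its 31-base sequences also occur in AC170187.1.

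**Figure D2:**
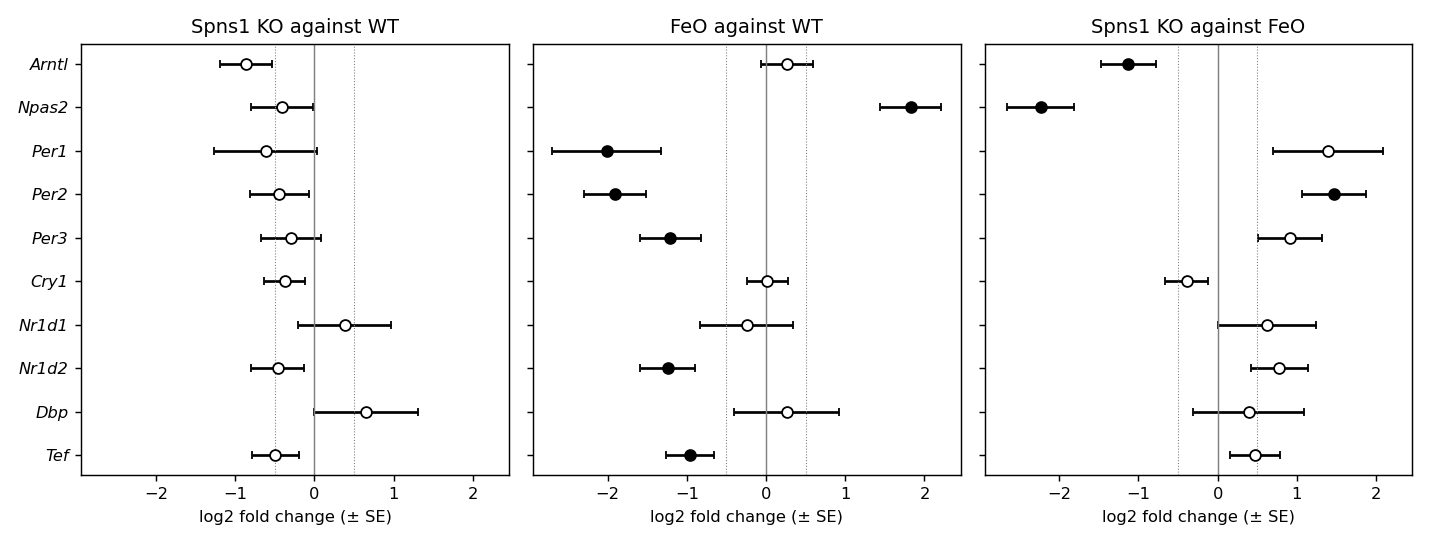
Log2 fold change with its standard error for each clock gene in the 3 comparisons; filled points passed both limits and dotted lines mark the fold change limit of 0.5. No gene passed in Spns1 KO against WT, 6 in FeO against WT and 3 in Spns1 KO against FeO. In that order, 14.0%, 22.4% and 6.76% of all tested genes were called higher and 7.55%, 19.7% and 8.10% lower.

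The output arm was read from Dbp and Tef, whose proteins bind the same D-box letters. Tef (chromosome 15, 81802421 to 81826863, plus strand) was at 716 to 771 CPM in the WT libraries, the narrowest WT range of the 10 members at 1.08-fold. It was at 480, 394, 418 and 806 CPM in Spns1 KO 1 to 4 and at 173, 645, 332 and 363 CPM in FeO 1 to FeO 4. Each FeO library lay below each WT library, and so did 3 of the 4 libraries labelled Spns1 KO. The FeO log2 fold change was -0.96 (standard error 0.30, edgeR adjusted p = 0.0186), and the call was lost without FeO 1 (-0.70, edgeR adjusted p = 0.0531) or FeO 3 (-0.90, edgeR adjusted p = 0.0511), against 0.00171 to 0.0954 over the alternatives. In Spns1 KO it was -0.49 (standard error 0.30, edgeR adjusted p = 0.245), and -0.78 without Spns1 KO 4.

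Dbp (chromosome 7, 45705088 to 45710203, plus strand) was at 21.9, 21.4, 16.7, 18.4 and 32.8 CPM in WT 1 to WT 5 and at 25.3, 25.1, 24.7 and 64.5 CPM in Spns1 KO 1 to 4. In FeO 1 to FeO 4 it was at 1.90, 71.8, 6.31 and 26.5 CPM. FeO thus held both the lowest and the highest Dbp value of the 13 libraries. The group log2 fold change of 0.26 (standard error 0.66, edgeR adjusted p = 0.762) had a 95% interval of -1.14 to 1.67 and was -0.94 without FeO 2. In Spns1 KO it was 0.65 (standard error 0.66, edgeR adjusted p = 0.492), and 0.17 without Spns1 KO 4. Dbp shares 539 bases with Sphk2 on the other strand (45709665 to 45710203), and Sphk2 was at 31.6 to 49.1 CPM in WT and 30.9 to 50.3 CPM in FeO.

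Counted over the list, 0 of the 10 members were called in Spns1 KO against WT, where 14.0% of all tested genes were called higher and 7.55% lower. At an unadjusted p under 0.05 there was 1 member, Arntl, and DESeq2 called 1 member, Arntl. The median log2 fold change of the members was -0.43, against -0.04 over all tested genes, and 8 of 10 were negative. One member, Arntl, lay wholly below WT (9.38% of all genes did), and none lay wholly above it (13.1% did). Scaling by library totals, which moved the median of all genes to -0.18, gave 1739 genes higher and 2086 lower, against 2307 and 1243 with TMM scaling, and 1 member lower. Without Spns1 KO 4 the count of members called lower was 1, Per1, and without FeO 4 it was 1, Arntl.

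In FeO against WT 1 member was called higher, where 22.4% of all tested genes were, and 5 were called lower, where 19.7% were. The median of the members was -0.60, against -0.01 over all genes. Without FeO 1, 3 members were called lower, and without FeO 3, 2 were. Over all tested genes, those called lower went from 3252 to 2333 without FeO 1 and to 2571 without FeO 3. Every FeO value was above every WT value for 1 member, Npas2 (16.9% of all genes), and below for 4, Per2, Per3, Nr1d2 and Tef (16.4% of all genes). Both comparisons share the WT libraries, so their values are not independent of each other.

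Set directly against FeO, the libraries labelled Spns1 KO had lower Arntl and Npas2 and higher Per2. The background was 8.10% of all tested genes called lower and 6.76% called higher. For Npas2 the log2 difference was -2.23 (standard error 0.42, edgeR adjusted p = 0.00557), and all Spns1 KO values lay below all FeO values. For Per2 it was 1.47 (standard error 0.40, edgeR adjusted p = 0.0253), and the call was lost without Spns1 KO 4 (1.02), FeO 1 (1.21) or FeO 3 (1.37), with edgeR adjusted p from 0.00183 to 0.119 over the alternatives. For Arntl it was -1.13 (standard error 0.35, edgeR adjusted p = 0.0409), close to the limit, and 9 of the 13 fits that left out 1 library lost the call (edgeR adjusted p from 0.00965 to 0.192 over the alternatives). The 4 fits that kept it were those without WT 4, WT 5, FeO 2 or FeO 4. Per1 and Dbp, not called at 1.39 and 0.39, turned to -0.11 and -0.09 without Spns1 KO 4. Without FeO 2, Per2, Per3, Nr1d2 and Tef were all called higher in Spns1 KO than in FeO, a count of 4 in place of 1. Over all tested genes, those called higher went from 1113 to 1457 in that fit.

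In every member but Per1 the FeO libraries ranged more widely than those of either other group. The highest FeO library exceeded the lowest 37.8-fold in Dbp, 11.03-fold in Nr1d1, 6.93-fold in Per3 and 5.39-fold in Npas2, and 2.91-fold in Cry1, the member with the narrowest range. Over the 12208 genes averaging at least 100 counts, the median range was 1.46-fold in WT, 1.51-fold in Spns1 KO and 1.70-fold in FeO. A range as wide as that of Dbp was held by 0.311% of these genes in FeO, and one as wide as that of Cry1 by 9.31%. In WT the ranges ran from 1.08-fold in Tef to 2.96-fold in Per1. In Spns1 KO they ran from 1.59-fold in Cry1 to 11.4-fold in Per1, the latter set by Spns1 KO 4.

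**Figure D3:**
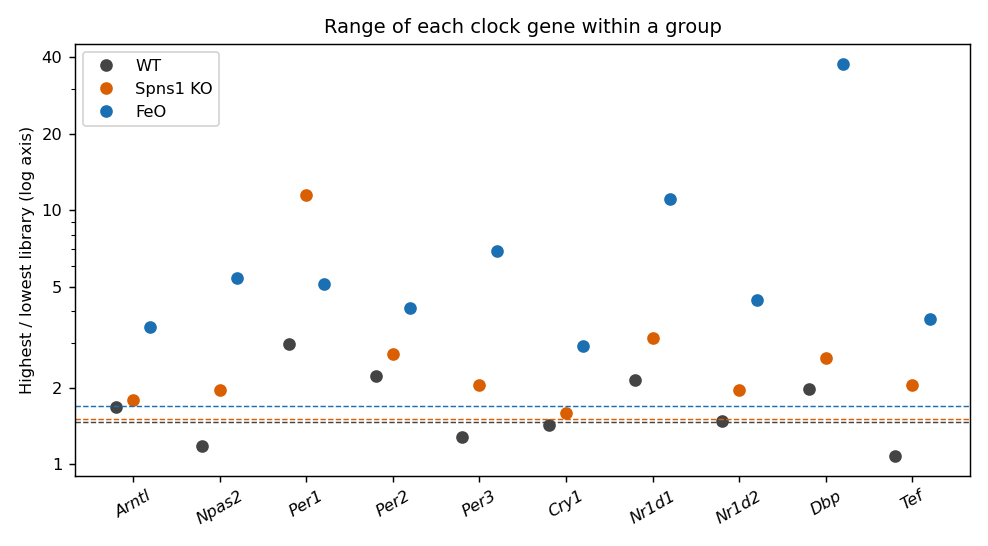
Highest divided by lowest library (log axis) for each clock gene in WT, Spns1 KO and FeO; dashed lines are the medians over 12208 genes in the same group. All 10 FeO points lie above the FeO median of 1.70, up to 37.8 for Dbp.

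The libraries took their places in the same way from gene to gene. After the values were seen, it was counted that FeO 1 and FeO 3 were the 2 highest of 13 libraries in 3 members (Arntl, Npas2 and Cry1) and the 2 lowest in the other 7, so that they were the extremes in all 10. Over all tested genes they were the 2 highest in 11.2% and the 2 lowest in 11.4%. Spns1 KO 4 was the highest of its group in the same 7 members, Per1, Per2, Per3, Nr1d1, Nr1d2, Dbp and Tef, against 38.9% of all genes, and the lowest in Npas2 and Cry1, against 40.4% of all genes. The ratio of Arntl to Dbp, genes that peak at opposite times of day, was 21.2, 0.207, 5.68 and 0.441 in FeO 1 to FeO 4. It was 0.529 to 1.30 in WT and 0.150 to 0.592 in Spns1 KO, with Spns1 KO 3 and Spns1 KO 4 below the whole WT range.

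**Figure D4:**
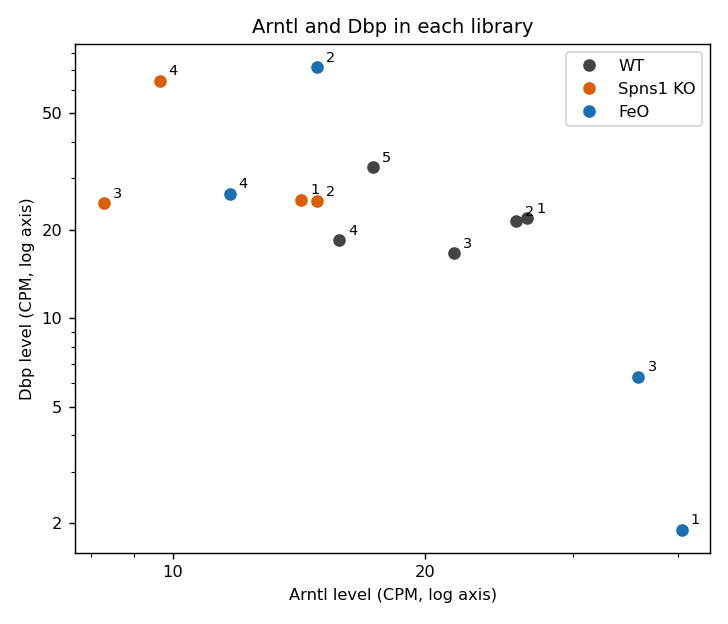
Arntl level against Dbp level (CPM, both log axes), 1 point per library with its replicate number. FeO 1 and FeO 3 lie at high Arntl and low Dbp, with Arntl to Dbp ratios of 21.2 and 5.68, and no other library exceeds 1.30.

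Other measures also differed between libraries, and FeO 1 and FeO 3 were unlike each other in their marker sums. FeO 1 had the lowest summed level of proximal tubule markers, 1578 CPM, and the highest of collecting duct markers, 1089 CPM, and of podocyte markers, 582 CPM. FeO 3 had 3093 CPM of proximal tubule, 560 CPM of collecting duct and 244 CPM of podocyte markers, beside 3687, 435 and 304 CPM in FeO 2 and 2557, 722 and 434 CPM in FeO 4. Of the 5 collecting duct markers 4 were called higher in FeO than in WT, where 22.4% of all tested genes were. Their summed level was 265 to 476 CPM in WT. Also called higher in FeO were 2 of 8 proximal tubule, 2 of 4 podocyte, 1 of 4 endothelial, 1 of 3 thick ascending limb and 3 of 4 macrophage markers. Distal convoluted tubule and fibroblast markers had 0 calls in FeO, and 1 proximal tubule and 1 endothelial marker were called lower. In Spns1 KO 6 of 8 proximal tubule markers were called higher, where 14.0% of all tested genes were. So were 2 of 4 podocyte, 1 of 4 endothelial, 1 of 3 thick ascending limb and 1 of 2 distal convoluted tubule markers. Of collecting duct markers 2 of 5 were higher and 1 lower, of fibroblast markers 2 of 4 were higher, and macrophage markers had 0 calls. The difference between long and short transcripts, in log2 units, was -0.31 to 0.40 in WT, -0.95 to -0.35 in Spns1 KO and -1.22 to -0.86 in FeO, and Spns1 KO 4 had the value nearest to WT in its group. The part of cell make-up and of transcript length in the clock gene values was not tested for single libraries, and in such bulk RNA fewer cells of a type and less RNA per cell cannot be told apart. With a trend fitted to transcript length and GC content taken out, the FeO counts stayed at 1 member higher and moved from 5 to 4 lower, with Per3 at -0.84 (edgeR adjusted p = 0.0730, against 0.00163 to 0.0757 over the alternatives).

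How closely the members followed Arntl was measured over the 13 libraries on log2 CPM with each group's mean subtracted, with a two-sided permutation test within groups and adjustment over 9 pairs. Cry1 had r = 0.93 (Spearman's rho 0.90, permutation p = 0.00166 and 0.00762, adjusted p = 0.0149 and 0.0670). Without FeO 1 and FeO 4, the libraries farthest from the median, its r was 0.86 (permutation p = 0.0177, adjusted p = 0.160), so it stayed positive and missed the limit after adjustment with 11 libraries. Npas2 had r = 0.90 (rho 0.84, permutation p = 0.0120 and 0.0468, adjusted p = 0.0542 and 0.140) and 0.81 without them. The members known to peak opposite to Arntl all had negative coefficients. Nr1d2 had r = -0.84 (rho -0.87, permutation p = 0.0247 and 0.0149, adjusted p = 0.0740 and 0.0670), and without the same libraries -0.75. Nr1d1 had r = -0.84 (rho -0.79, permutation p = 0.0630 and 0.0675, adjusted p = 0.142 and 0.152), and -0.76 without them. Dbp had r = -0.76 (rho -0.67, permutation p = 0.115 and 0.165, adjusted p = 0.172 and 0.193), and -0.64 without them. Per3 had r = -0.72 (rho -0.65, permutation p = 0.0973 and 0.118, adjusted p = 0.172 and 0.182), and -0.60 without them. Tef had r = -0.58 (rho -0.59), Per1 -0.45 (rho -0.48) and Per2 -0.42 (rho -0.41), with adjusted permutation p of 0.182 or more, and -0.49, -0.39 and -0.14 without those libraries. After adjustment Cry1 was the only pair past 0.05 by Pearson's r, no pair was by Spearman's rho, and no group has the 6 libraries needed for a value within it. In the values without FeO 1 and FeO 4 the group means subtracted were still those of all libraries. FeO 2 and FeO 3, at 14.9 and 35.9 CPM of Arntl, stayed in. Those values therefore cannot show whether a pair goes together apart from the spread within FeO.

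Among the 12198 genes outside the list that averaged at least 100 counts, those most like Arntl by Pearson's r on the same 13 libraries, again with group means subtracted, were Lmf1 (0.90), Loxl4 (0.88), Lingo4 (0.87), Tmem219 (0.87) and Gm13841 (0.87). Those most like Dbp were Depp1 (0.96), Osbp2 (0.94), Fam227a (0.93), Phf11c (0.93) and Bcdin3d (0.93). Depp1 shows what such likeness looked like: it was at 0.885, 34.3, 1.70 and 9.07 CPM in FeO 1 to FeO 4, where Dbp had its lowest value in FeO 1 and its highest in FeO 2. These values describe the pattern within groups and not between them, and no test was made on them. Gm13841 was at 0 to 0.0308 CPM in WT and at 13.1 to 32.7 CPM in Spns1 KO, whereas every WT library lay above every Spns1 KO library in Arntl.

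The rest of the clock was read from 22 further genes. In FeO against WT 1 of the 22 was called higher and 10 were called lower, beside 22.4% and 19.7% of all tested genes, with a median log2 fold change of -0.58 (-0.01 over all genes). In Spns1 KO against WT 1 was higher and 4 were lower, beside 14.0% and 7.55% of all tested genes, with a median of -0.35 (-0.04 over all genes). Clock, the usual partner of Arntl, was at 103 to 225 CPM in WT and 82.8 to 119 CPM in FeO, and fell by 0.57 on the log2 scale (edgeR adjusted p = 0.0396). The call of Clock was lost without WT 3 (-0.52), WT 4 (-0.36), Spns1 KO 2 (-0.57), FeO 2 (-0.47) or FeO 4 (-0.46), with the FeO and WT groups fitted alone, and without the filter on low counts. Cry2, the second cryptochrome, was at 79.9 to 185 CPM in WT and at 18.2, 58.9, 28.2 and 41.3 CPM in FeO 1 to FeO 4. It fell by 2.08 there (edgeR adjusted p = 0.00254), where the log2 fold change of Cry1 was 0.02. In the libraries labelled Spns1 KO, Cry2 was at 57.7, 68.2, 46.2 and 224 CPM, and against FeO it was higher by 1.43 (edgeR adjusted p = 0.0488). With each library left out in turn the call held in 3 of 13 fits, those without WT 4, Spns1 KO 3 or FeO 2, and the difference was 0.65 without Spns1 KO 4 (edgeR adjusted p = 0.233, against 0.0277 to 0.233 over those fits). Against WT, Cry2 in Spns1 KO had a log2 fold change of -0.65, and without Spns1 KO 4 it was called at -1.43.

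Of the Ror receptors, which activate Arntl against the Nr1d repressors, Rora fell in both comparisons. It was at 240 to 529 CPM in WT, 151 to 316 CPM in Spns1 KO and 88.9 to 175 CPM in FeO, with log2 fold changes of -1.002 (edgeR adjusted p = 0.0187) and -1.74 (edgeR adjusted p = 0.000595). The Spns1 KO call was lost without WT 3 (-0.94), Spns1 KO 1 (-0.95), Spns1 KO 2 (-0.88) or Spns1 KO 3 (-0.94). The Ror and Nr1d receptors share the letters TAGGTCA, found in 2.61% of all windows and among members only in Arntl, 31 bases into the transcript from a listed start. Hlf, the third PAR bZip factor, had 0.24 and -0.16, and Nfil3, which opposes that family at the D-box, had -0.77 and -0.62, none called. Nfil3 in Spns1 KO had an edgeR adjusted p of 0.0955, and it was called without WT 4 (-0.95 in Spns1 KO and -0.80 in FeO) or Spns1 KO 4 (-1.05 in Spns1 KO).

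The kinases Csnk1d and Csnk1e, which phosphorylate Per proteins, fell in FeO by 0.61 (edgeR adjusted p = 0.00183) and 0.52 (edgeR adjusted p = 0.0252). Bhlhe40, a repressor that competes for E-boxes, fell in FeO by 0.92 (edgeR adjusted p = 0.0167). The call of Bhlhe40 was lost without FeO 1 (-0.72) or FeO 3 (-0.81), and that of Csnk1e without WT 2 (-0.49), WT 3 (-0.48), WT 5 (-0.47), FeO 1 (-0.51) or FeO 3 (-0.40). Csnk1d kept its call in each of these fits. None of these 3 genes passed both limits in Spns1 KO, where their log2 fold changes were -0.41, -0.27 and -0.04.

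Genes known to cycle in many tissues completed the list. Wee1, a cell-cycle kinase driven by the clock, was at 55.4 to 70.2 CPM in WT, 30.4 to 46.3 CPM in Spns1 KO and 25.0 to 31.2 CPM in FeO, without overlap with WT. It fell by 0.64 in Spns1 KO (edgeR adjusted p = 0.00513) and by 1.11 in FeO (edgeR adjusted p = 0.000349). Tsc22d3, a glucocorticoid-induced gene also called Gilz, fell by 0.94 (edgeR adjusted p = 0.0230) and 1.19 (edgeR adjusted p = 0.00360), and its Spns1 KO call was lost without WT 5 (-0.82), Spns1 KO 1 (-0.94), Spns1 KO 2 (-0.77) or Spns1 KO 3 (-0.88). Usp2, a deubiquitinase, was at 120, 110, 128 and 480 CPM in Spns1 KO 1 to 4, with Spns1 KO 4 inside the WT range of 263 to 553 CPM, and fell in FeO by 1.38 (edgeR adjusted p = 0.0313). The FeO call of Usp2 was lost without WT 1 (-1.31), WT 2 (-1.33), WT 5 (-1.30), FeO 1 (-1.09), FeO 3 (-1.30) or FeO 4 (-1.30), and in Spns1 KO it was called without Spns1 KO 4 (-1.93). Tspan4, a tetraspanin, rose by 0.52 in Spns1 KO (edgeR adjusted p = 0.0363) and by 0.80 in FeO (edgeR adjusted p = 0.00179). With the length and GC trend taken out, Clock and Tspan4 were no longer called in FeO, nor Rora and Tspan4 in Spns1 KO. Without Spns1 KO 4, 10 of the 22 were called lower in Spns1 KO, and without any of Spns1 KO 1, 2 or 3, 2 were, with Wee1 among them. Over all tested genes, those called lower went from 1243 to 2677 without Spns1 KO 4 and to between 504 and 527 without any of the other 3. Tspan4 in Spns1 KO lost its call without any of WT 1 to WT 4 or Spns1 KO 1 to 3, at 0.43 to 0.53.

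**Figure D5:**
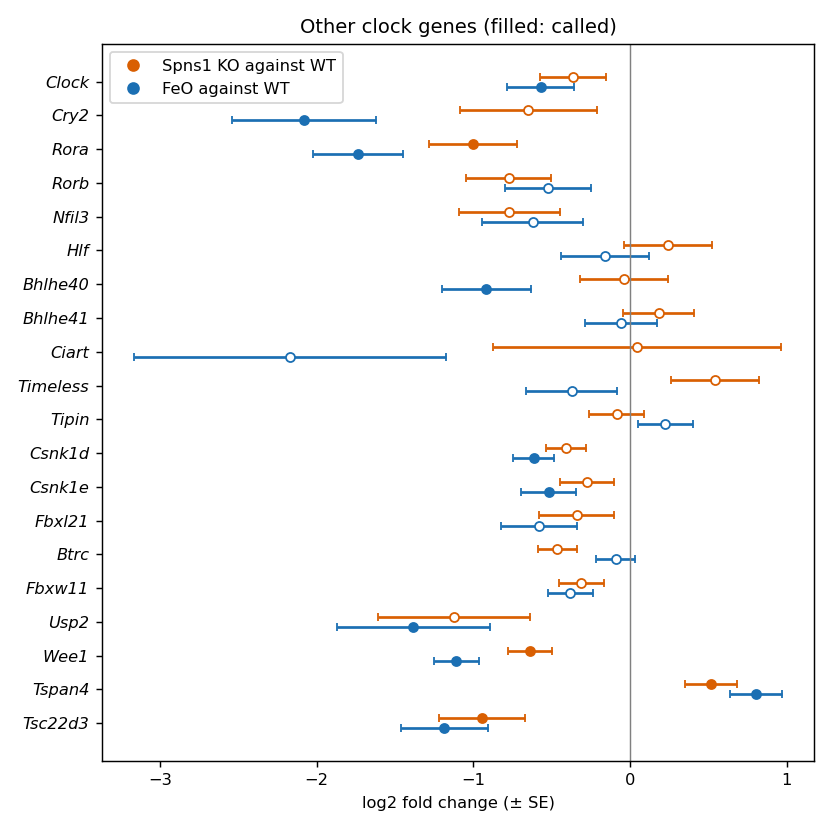
Log2 fold change with its standard error for 20 of the 22 further clock genes in Spns1 KO and in FeO, each against WT; filled points passed both limits. Tspan4 is the only gene with filled points above 0, and 9 FeO points and 3 Spns1 KO points below 0 are filled. Of all tested genes, 22.4% were called higher and 19.7% lower in FeO, and 14.0% higher and 7.55% lower in Spns1 KO.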

How the data were processed

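Thiol-tagged RNA from 13 kidney samples was biotinylated, bound to streptavidin, enriched for poly-A RNA and read from both ends. The authors deposited an estimated count per gene symbol and library, whole numbers without normalization. The submitters' processing notes name bcl2fastq 2.19, kallisto 0.44.0, DESeq2 and GRCm38, whereas the methods describe STAR and HTSeq on mm10. The notes' transcript assignment and HTSeq treat shared reads differently, and no strand setting is given.

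The 16468 of 35013 genes kept by filterByExpr were scaled with TMM factors and tested in a single fit of all 13 libraries with the quasi-likelihood test of edgeR 4.0.16 in R 4.3.3, with Benjamini-Hochberg adjustment over those genes. A gene was called at an adjusted p under 0.05 and a log2 fold change beyond 0.5. Alternatives used DESeq2 1.42.0 and limma 3.58.1, other scalings, filters and samples. Scripts were tested first on simulated data in which few genes were changed. There the main test of FeO against WT recovered 39% of log2 changes of 1 and 84% of log2 changes of 2. A gene that was not called is therefore not shown to be unchanged. Gene positions are from GENCODE M21, promoter windows (250 bases before to 50 after a start) from RefSeq.

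The members and lists were chosen with earlier results of these data known. Text names the 10 members, further clock genes called in any comparison, and Clock, Cry2, Rora, Hlf and Nfil3, and 2 genes of the lists are counted but not reported here. Genes most like Arntl and Dbp were the 5 with the highest r each.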

Additional observations from a re-analysis of the deposited data

Results flagged for a closer look

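In the libraries labelled Spns1 KO, Spns1 KO 4 lay far from its group in 4 members, with 468 CPM of Per1, 247 CPM of Per2, 80.1 CPM of Nr1d1 and 64.5 CPM of Dbp. It did so in 4 of the further clock genes, with 224 CPM of Cry2, 113 CPM of Ciart, 30.9 CPM of Csnk1e and 480 CPM of Usp2. In each case its gap to the next library was most of the range of the 4. Other libraries far from their groups were WT 5 in Nr1d1 (51.9 CPM), Bhlhe41 (8.30 CPM) and Tipin (12.0 CPM), WT 4 in Timeless (3.25 CPM), WT 3 in Wee1 (70.2 CPM) and FeO 2 in Csnk1d (128 CPM). These were 14 cases in 90 groups (the 10 members and 20 of the 22 further genes, in each of 3 groups), 8 of them in Spns1 KO 4. The limits used give about 1 in 20 by chance for independent groups of normal values. These genes were read in the same libraries and moved together, so the count cannot be set against that rate.

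The direct edgeR comparison of Spns1 KO with FeO called 4 genes, Arntl (log2 difference -1.13), Npas2 (-2.23), Per2 (1.47) and Cry2 (1.43). With 1 library left out, Npas2 kept its call in all 13 fits, whereas Arntl lost it in 9, Per2 in 3 and Cry2 in 10.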

How the results depend on the processing

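The results rest on 4 or 5 libraries per group, and no member had fewer than 58 reads in a library. Of 720 refitted member fold changes, 665 kept their direction and their side of the limits, 29 lost a call, 8 gained one and 18 changed sign.

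In Spns1 KO against WT, 1 member was called lower with DESeq2, with library totals and with the 2 groups alone, in place of 0, and 0 to 1 with a library left out. Of the 22 further genes, 0 were called higher with upper-quartile factors, library totals, the length and GC trend removed, edgeR's glmTreat, or WT 1 and WT 2 as 1 library (an alternative chosen after seeing the data), 2 with the 2 groups alone, and 0 to 1 with a library left out. Called lower were 8 with library totals, 2 with the trend removed, 0 with glmTreat and 2 to 10 with a library left out. The log2 fold change of Nr1d1 ran from -0.17 to 0.66.

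In FeO against WT, 2 members were called lower under glmTreat, which lost Per1, Per3 and Tef, and 2 to 5 with a library left out. Of the further genes, 0 were called higher with the trend removed or glmTreat, and 4 lower with glmTreat. Cry1 turned to -0.11 with limma-voom, -0.01 with upper-quartile factors and -0.05 with library totals, and Dbp to -0.80 with limma-voom and -0.10 with the trend removed. With a library left out, Arntl ran from -0.02 to 0.53, Cry1 from -0.23 to 0.26, Nr1d1 from -0.96 to 0.11 and Dbp from -0.94 to 0.67.

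In Spns1 KO against FeO, 0 members were called higher with the 2 groups alone or glmTreat, and 0 to 4 with a library left out. Only 1 was called lower with limma-voom, the 2 groups alone, the trend removed, glmTreat, or WT 1 and WT 2 as 1 library, and 1 to 2 with a library left out. Of the further genes, 3 were higher with DESeq2, 2 with limma-voom, DESeq2 size factors or the trend removed, 0 with upper-quartile factors, library totals, the 2 groups alone, glmTreat, or WT 1 and WT 2 as 1 library, and 0 to 2 with a library left out. Per1 ran from -0.11 to 1.97 and Dbp from -0.09 to 1.61.

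The r of Arntl with Npas2 passed the limit with library totals (0.90, permutation adjusted p = 0.0419), and that with Cry1 missed it without FeO 1 and FeO 4 (0.86). The cause was not tested for any of these changes.

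Replicate numbers are shared between groups, but libraries with the same number did not deviate together (correlations of -0.30 to 0.26 over 12 pairs, with 0 of 4 libraries in each comparison closest to its own number), so no pairing was taken. A replicate block turned FeO Cry1 to -0.15 and FeO Dbp to -0.30. In Spns1 KO against FeO the block gave 1 member lower and 0 further genes higher, and it changed no other count by over 1.5 times.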

Other observations

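Ciart, a repressor of the Arntl pair, was picked out after its values were seen. It was at 53.7, 43.8, 20.6, 6.75 and 35.4 CPM in WT 1 to WT 5, at 6.48, 6.25, 6.55 and 113 CPM in Spns1 KO 1 to 4, and at 0.885, 18.2, 1.78 and 7.61 CPM in FeO 1 to FeO 4. Its range within a group, 18.0-fold in Spns1 KO and 20.6-fold in FeO, was wide in the libraries in which Per1 and Dbp were, and neither comparison with WT was called (log2 fold change 0.04 and -2.17, edgeR adjusted p = 0.978 and 0.0862). Without Spns1 KO 4, Ciart was called lower both in Spns1 KO (-2.32) and in FeO (-2.17), and without FeO 2 in FeO (-3.22). The FeO call was also made with limma-voom, with the groups compared fitted alone and with the replicate block. Its RefSeq window holds CACGTG at 116, 58 and 44 bases before the start.

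WT 4 was the lowest WT library in 4 of the 10 members (Arntl, Per1, Per2 and Tef) and in 9 of 20 further clock genes (Cry2, Nfil3, Bhlhe40, Ciart, Timeless, Csnk1d, Csnk1e, Usp2 and Tsc22d3). It was the highest in 2 members (Per3 and Nr1d2) and in 5 of the 20 (Clock, Rorb, Hlf, Fbxl21 and Fbxw11).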
